A study of Mus musculus with 6 samples.

Results

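A group of 7 genes of the ubiquitin system that are known for their expression in the mouse testis, or as relatives of such genes, were examined: Rnf151, Rnf133, Rnf148, Znrf4, Klhl10, Rnf138 and Rnf138rt1. They were listed by name, and 6 of the 7 were represented on the arrays by a probe carrying that gene name, with 1 probe each. All 6 probes were among those of the 25275 genes tested. Rnf138rt1 had no probe of that name and was not analysed here. The list was drawn up because Rnf151, Rnf133 and Znrf4 were already known to be among the genes with the most negative strain differences in these samples, so the strain differences of the listed genes are given as a description, without a test.

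The samples were whole testes of B6.MRLc1 mice and of C57BL/6 mice (B6), with 3 arrays per strain. B6.MRLc1 is a congenic strain, which means that one stretch of its genome comes from another strain: here the MRL-derived interval from D1Mit202 to D1Mit403, at 67.97 to 81.63 cM on chromosome 1, in an otherwise C57BL/6 genome. The B6 mice were labelled wild type. All animals were males aged 3 months, and all testes, in both strains, had received one heat treatment of the scrotum (43 °C, 20 min) and were collected on day 10 after it. Unheated testes were not analysed here, so every difference is between heated testes of 2 strains and none is a response to heat.

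Ubiquitin is a small protein that cells attach to other proteins, often to send them to the proteasome for degradation. A ubiquitin ligase brings a ubiquitin-loaded conjugating enzyme to the target, and a RING finger is the zinc-binding fold with which many ligases hold that enzyme. Developing male germ cells rely on this system when spermatids, the haploid cells left by meiosis, build the acrosome, replace histones with protamines and shed most of their cytoplasm, and several RING genes are transcribed mainly in those cells.

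The listed genes play different parts in this system. Rnf151 encodes a spermatid RING protein that binds dysbindin and has been linked to acrosome formation. Rnf133, Rnf148 and Znrf4 encode membrane RING proteins with a protease-associated domain; RNF133 and ZNRF4 reside in the endoplasmic reticulum, where ZNRF4 is known to act on the chaperone calnexin. Klhl10 encodes no RING finger but a BTB-kelch adaptor that joins targets to ligases built on cullin 3 in spermatids. Rnf138 encodes a more widely expressed ligase known from Wnt signalling and from the repair of broken DNA. All 6 probes lie outside chromosome 1, the chromosome of the congenic interval.

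The promoter sequences of the genes whose strain differences were the most negative in the processed signal are shown as a description only. RefSeq promoter sequences of build GRCm38.p6 were matched for 6 of the 7 listed genes, and Rnf138 had no match. Each line gives the 250 bases before the annotated start, 5′ to 3′ on the gene's own strand, with motif matches in capitals. The letters searched, on both strands, were TGACGTCA (the full cyclic AMP response element, the site of factors of the CREB and CREM family), TGACG (its shorter site, which lies inside the full one), TATAAA (the core promoter box named after its letters) and CCAAT (a further promoter box of that kind). The sequences come from the minus strand at chr17:56512484-56512733 for Znrf4, chr17:24718058-24718307 for Rnf151, chr6:23650306-23650555 for Rnf133 and chr6:23655137-23655386 for Rnf148.
Znrf4: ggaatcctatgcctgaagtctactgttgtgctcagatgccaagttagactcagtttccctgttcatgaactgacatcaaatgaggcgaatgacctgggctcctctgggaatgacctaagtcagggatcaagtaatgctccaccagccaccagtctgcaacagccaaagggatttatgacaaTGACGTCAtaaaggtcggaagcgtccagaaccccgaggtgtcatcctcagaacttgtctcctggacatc
Rnf151: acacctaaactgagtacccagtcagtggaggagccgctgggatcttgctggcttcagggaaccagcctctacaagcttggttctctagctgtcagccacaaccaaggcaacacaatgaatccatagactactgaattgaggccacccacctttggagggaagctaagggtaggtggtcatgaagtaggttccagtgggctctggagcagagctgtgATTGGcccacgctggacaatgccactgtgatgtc
Rnf133: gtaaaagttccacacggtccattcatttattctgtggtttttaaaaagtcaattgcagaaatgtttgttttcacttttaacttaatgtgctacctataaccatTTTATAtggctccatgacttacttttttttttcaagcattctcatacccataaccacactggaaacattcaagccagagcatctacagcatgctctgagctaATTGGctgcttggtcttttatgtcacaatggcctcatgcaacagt
Rnf148: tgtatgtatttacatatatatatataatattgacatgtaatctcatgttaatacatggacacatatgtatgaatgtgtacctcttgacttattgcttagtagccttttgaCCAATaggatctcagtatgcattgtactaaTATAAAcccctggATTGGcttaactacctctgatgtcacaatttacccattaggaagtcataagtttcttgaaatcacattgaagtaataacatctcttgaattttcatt

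In these 4 windows the full cyclic AMP response element occurred in Znrf4 alone, 69 to 62 bases before the start, and both matches to the shorter site in Znrf4 lay inside it. Of 32851 promoters of the same length, 508 (1.55%) held the full element and 17.8% held the shorter one. Rnf151 had a reverse CCAAT box 34 to 30 bases before its start. Rnf133 had one at 45 to 41 bases and a reverse TATA box at 147 to 142 bases. Rnf148 had a TATA box at 110 to 105 bases and CCAAT boxes at 140 to 136 bases and, in reverse, at 97 to 93 bases. Of all promoters, 33.8% held a CCAAT box and 12.4% a TATA box. The window of Klhl10 (chr11:100441674-100441923, plus strand) held none of these letters, and that of Rnf138rt1 held 1 match to the shorter response element. The neighbours Rnf133 and Rnf148 had A- and T-rich windows, with 36.8% and 30.8% G and C bases, below the middle range of all promoters (45.2% to 61.2%), whereas Znrf4 (49.6%), Rnf151 (53.6%) and Klhl10 (54.8%) lay within it. These matches describe letters and do not show that a factor binds.

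Levels are log2 values of the processed signal divided by the 75th percentile of its array, so that 0 is the signal at that percentile; levels of different probes cannot be compared with each other. Rnf151 (probe at chr17:24853156-24853215 of build mm9, minus strand) had levels of -5.06, -4.27 and -3.14 on B6.MRLc1 arrays 1, 2 and 3, against -0.13, -0.78 and -1.24 on B6 arrays 1, 2 and 3. The underlying processed intensities were 16.8, 31.2 and 63.6 in B6.MRLc1, against 607.2, 376.4 and 245.9 in B6. Every B6.MRLc1 value lay below every B6 value, with a gap between the groups about as wide as the spread within B6.MRLc1. The means were -4.16 ± 0.96 in B6.MRLc1, against -0.72 ± 0.55 in B6 (SD, n = 3 per strain), a difference of -3.44 (SE 0.53). The scanner software rated the spot well above background on 2 of 3 B6.MRLc1 arrays and on 3 of 3 B6 arrays.

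Znrf4 (chr17:56650745-56650804 of mm9, minus strand) followed a similar course. Its levels were -5.64, -5.35 and -3.81 in B6.MRLc1, against -0.96, -1.70 and -2.01 in B6. The groups did not overlap, and again array 3 was the highest in B6.MRLc1 and array 3 the lowest in B6. The means were -4.93 ± 0.98 in B6.MRLc1, against -1.56 ± 0.54 in B6 (SD, n = 3 per strain), a difference of -3.37 (SE 0.54). Only B6.MRLc1 array 3 was well above background in that strain, so no fold is given. With dim signals raised to the lowest signal well above background on their array, the difference was -2.88 (SE 0.39).

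Rnf133 (chr6:23598873-23598932 of mm9, minus strand) was the one gene with no B6.MRLc1 spot rated well above background. Its levels were -6.57, -7.03 and -5.20 in B6.MRLc1, against -1.95, -3.10 and -3.29 in B6. The B6.MRLc1 intensities were 5.86, 4.62 and 15.3, against 172.4, 75.1 and 59.5 in B6. The groups were far apart, but the B6.MRLc1 level is only a bound. With B6.MRLc1 signals below the lowest signal well above background on their array raised to it, the mean was 4.35-fold lower in B6.MRLc1. This is a bound on the means under that floor, with no allowance for the spread between arrays. The measured means were -6.27 ± 0.95 in B6.MRLc1, against -2.78 ± 0.72 in B6 (SD, n = 3 per strain), a fitted difference of -3.49 (SE 0.58).

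Rnf148 (chr6:23603937-23603996 of mm9, minus strand) is the neighbour of Rnf133 and encodes a closely related protein. It had levels of -4.38, -5.16 and -4.37 in B6.MRLc1, against -2.37, -3.01 and -3.92 in B6. The groups did not overlap, although the gap of 0.45 was smaller than the spread within either strain, and B6 array 3 came close to the B6.MRLc1 arrays. The means were -4.64 ± 0.45 in B6.MRLc1, against -3.10 ± 0.78 in B6 (SD, n = 3 per strain), a difference of -1.54 (SE 0.44). In B6.MRLc1, 1 of 3 arrays was well above background.

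Klhl10 (chr11:100318241-100318300 of mm9, plus strand) was measured well above background on all 6 arrays and had narrow groups. Its levels were -2.28, -2.27 and -2.12 in B6.MRLc1, against -1.18, -1.31 and -1.46 in B6. The gap of 0.66 between the groups was wider than the spread within either of them. The means were -2.23 ± 0.09 in B6.MRLc1, against -1.32 ± 0.14 in B6 (SD, n = 3 per strain), a difference of -0.91 (SE 0.09) or a 1.88-fold lower level.

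Rnf138 (chr18:21185707-21185766 of mm9, plus strand) was the exception among the measured genes. Its levels were 1.51, 1.63 and 1.67 in B6.MRLc1, against 1.52, 1.38 and 1.53 in B6. These ranges overlapped, and the means were 1.60 ± 0.08 in B6.MRLc1, against 1.48 ± 0.08 in B6 (SD, n = 3 per strain), a difference of 0.13 (SE 0.07). This more widely expressed gene had a small positive difference, while the other 5 had negative ones.

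**Figure D1:**
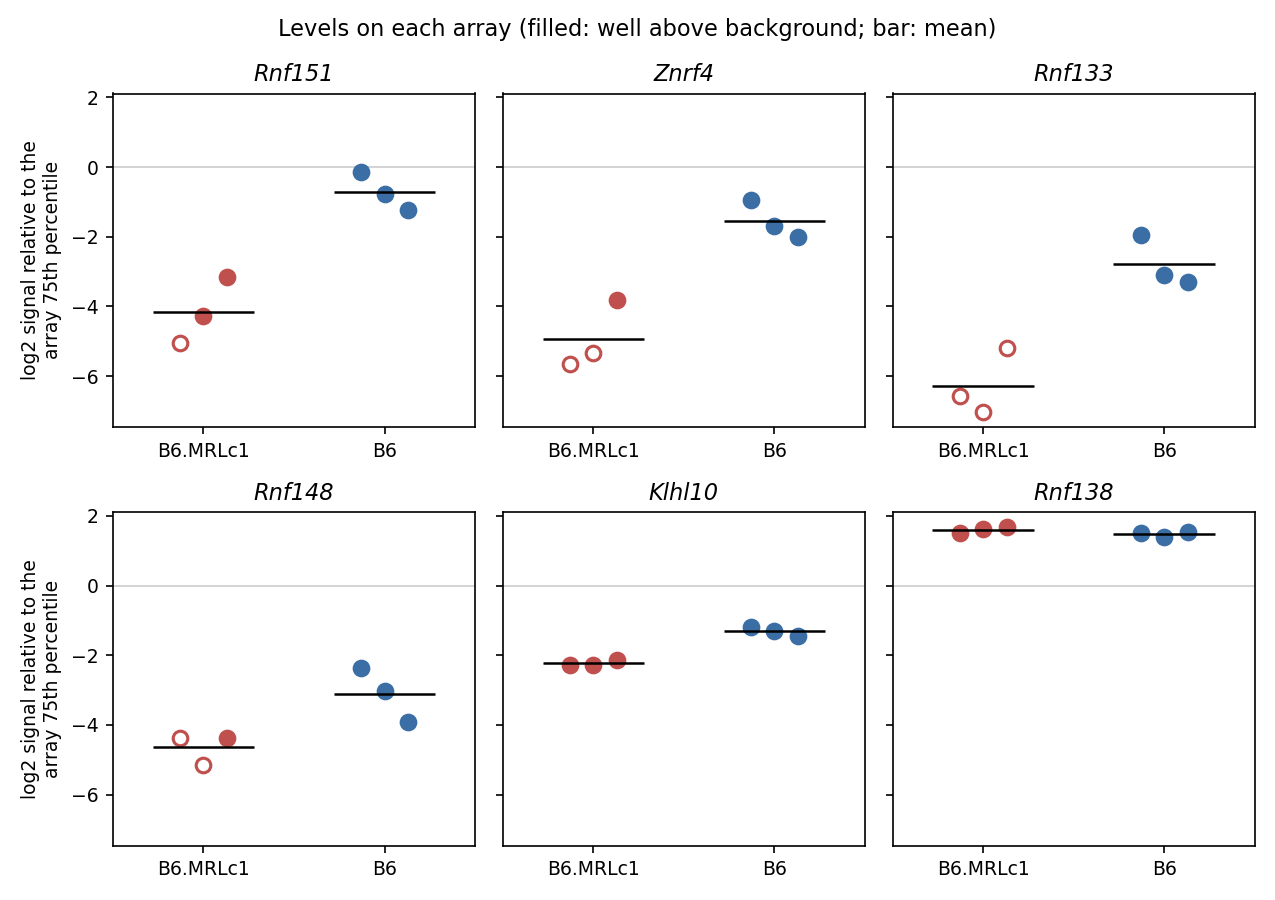
Log2 signal relative to the array 75th percentile (vertical axis) of the 6 measured genes on each B6.MRLc1 array and each B6 array, with the group means as bars; filled points were well above background and open points were not. The B6.MRLc1 points lie below all B6 points for 5 genes, and the ranges overlap for Rnf138.

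Over the whole fit, 660 of 25275 genes (2.61%) were called at an adjusted p under 0.05 by limma with Benjamini-Hochberg adjustment, 563 of them (2.23%) lower and 97 (0.384%) higher in B6.MRLc1. These p-values measure the spread between the arrays of each strain, each of which was taken as 1 mouse. Of the 6 measured genes, 4 were called lower (Rnf151, Rnf133, Znrf4 and Klhl10), 0 higher, and Rnf148 and Rnf138 were not called; since the list was chosen on this contrast, nothing is read from that count. Groups without overlap, with B6.MRLc1 below B6, were found for 5 of the 6 genes and for 14.2% of all genes, and a fitted difference below 0 for the same 5 and for 46.9% of all genes. Ordered from the most negative difference of all genes, Klhl10 stood at place 889 and Rnf138 at place 19085, both measured well above background on all arrays; the other 4 get no place, since some of their B6.MRLc1 values are near background. The median difference was -2.46 over the 6 genes and 0.01 over all genes.

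The size of the differences depended on how the background was treated. The normexp background correction was used with an offset of 50 added to every signal, which draws differences of low signals toward 0. With it the difference became -2.16 (SE 0.26) for Rnf151, -1.68 (SE 0.22) for Znrf4 and -1.09 (SE 0.21) for Rnf133. It became -0.47 (SE 0.17) for Rnf148, -0.59 (SE 0.06) for Klhl10 and 0.13 for Rnf138. Klhl10 thus moved as well, although it was well above background on all arrays. The order of the genes changed: Rnf133 then lay nearer to 0 than Rnf151 and Znrf4, and Rnf148 nearer to 0 than Klhl10, while every sign was kept and the same number of genes, 4, was called. The median became -0.84 over the 6 genes and 0.04 over all genes. Calls also depended on single arrays: leaving out array 1 or array 2 of either strain brought the number called to 0, leaving out array 3 of B6 brought it to 1 (Klhl10), and leaving out array 3 of B6.MRLc1 kept it at 4. With no filter on dim probes 0 of the 6 were called. With the authors' deposited values, which held 3 of the 6 genes, and with probes well above background on all 6 arrays, which held 2, Klhl10 alone was called. The differences themselves ranged from -3.95 to -2.99 for Rnf151, from -4.02 to -3.07 for Rnf133, from -3.94 to -3.02 for Znrf4, from -1.95 to -1.17 for Rnf148, from -0.98 to -0.84 for Klhl10 and from 0.08 to 0.17 for Rnf138 when each array was left out.

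Genes of like name were set beside them. Of 113 tested genes named Rnf, Znrf or Klhl, the 5 listed genes with negative differences were also the 5 most negative, with normexp as well, a place set in part by how they were chosen, and Rnf138 stood at place 87. The 107 other genes ran from -0.70 to 1.30 with a median of 0.06, and 1 of them was called. The lowest of these others were Rnf122 and Rnf32 (-0.70 each), Rnf207 (-0.66) and Rnf17 (-0.47), a germ cell gene. With normexp they were at -0.13 for Rnf122, -0.44 for Rnf32, -0.07 for Rnf207 and -0.18 for Rnf17, so their order changed. Rnf122 and Rnf207 were well above background on 1 of 3 B6.MRLc1 arrays, Rnf32 and Rnf17 on 3 of 3. Why these differences moved toward 0 was not tested.

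**Figure D2:**
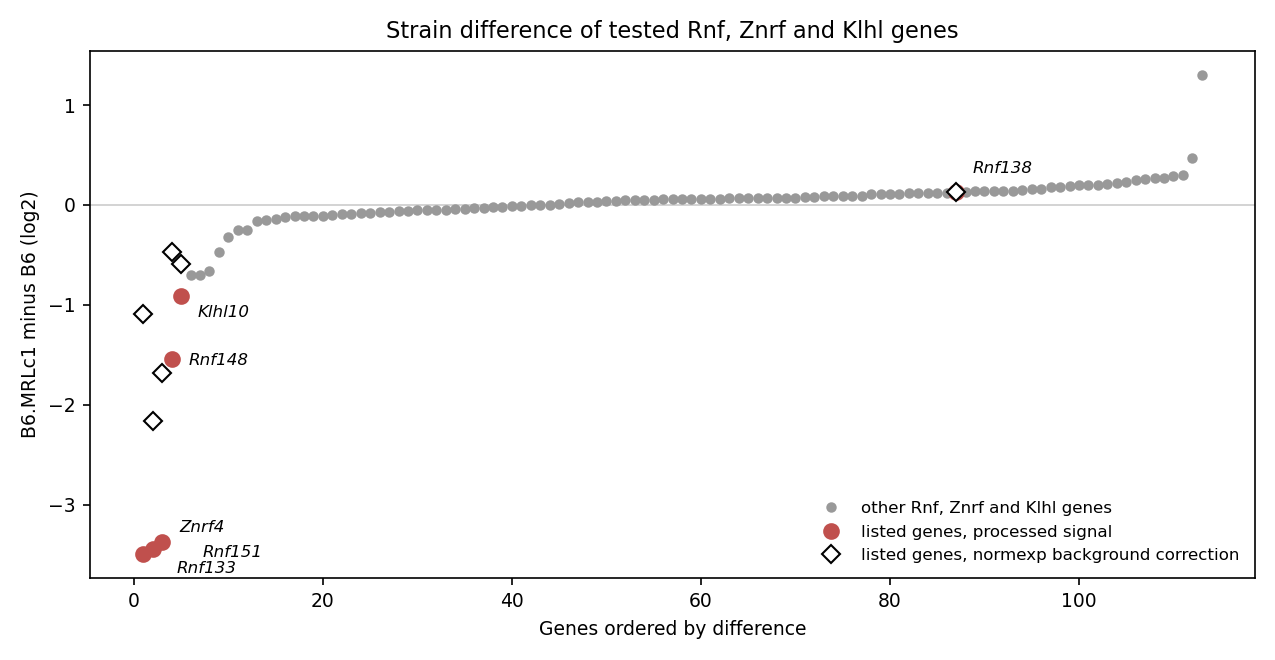
Difference B6.MRLc1 minus B6 on the log2 scale (vertical axis) of 113 tested Rnf, Znrf and Klhl genes in order of that difference (horizontal axis), with the listed genes as large points and, as diamonds, their differences after normexp background correction. The 5 listed genes at the left lie below the other 107 genes with the processed signal, and the diamonds of these 5 lie nearer to 0 than their points.

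Most of the 6 genes shared the order of the arrays within a strain. B6.MRLc1 array 3 had the highest level of its strain for 6 of 6 genes. In B6, array 1 was the highest and array 3 the lowest for 5 of 6 genes, Rnf138 being the exception. For Rnf151, Rnf133 and Znrf4, B6.MRLc1 array 3 lay only 0.71, 0.68 and 0.57 below the gene's mean over the 6 arrays, against 1.84 to 2.62 below it on the other B6.MRLc1 arrays. Klhl10 had the array order of Rnf151 within a much narrower range.

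The genes whose course over the 6 arrays was most like that of a listed gene were sought among 14217 named genes well above background on all 6 arrays, by the root mean square difference of log2 deviations from each gene's own mean. This left out genes that were dim on any array, as Rnf151, Rnf133 and Znrf4 themselves were. Among the genes searched, the same 3 came closest to Rnf151, Rnf133 and Znrf4. They were Tnp1, which encodes a transition protein that replaces histones in spermatid chromatin, Prm1, which encodes a protamine of sperm chromatin, and Tmem247. Tnp1 was the nearest to each, at 0.18 for Rnf133, 0.26 for Znrf4 and 0.38 for Rnf151. Tnp1 itself had levels of -1.85, -2.24 and -0.45 in B6.MRLc1, against 2.56, 1.63 and 0.99 in B6, all well above background, so its difference of -3.24 was measured on both sides. Prm1 had levels of -0.75, -1.26 and 1.01 in B6.MRLc1, against 4.20, 3.11 and 2.36 in B6. In both genes, too, the groups did not overlap and B6.MRLc1 array 3 was the highest of its strain. None of the 3 nearest genes was called (limma adjusted p of 0.0553 for Tnp1, 0.0694 for Prm1 and 0.0581 for Tmem247).

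Klhl10 had other nearest genes: Cd55b (0.05), Tekt4 (0.06), which encodes a tektin of the sperm tail, and Dnaaf3 (0.08), which encodes a factor for the assembly of axonemal dynein. Their differences were -0.96, -0.97 and -0.95, against -0.91 for Klhl10. All 3 were called lower (limma adjusted p of 0.0096 for Cd55b, 0.0190 for Tekt4 and 0.0190 for Dnaaf3). Rnf138 lay nearest to Tmem234, Mterf3 and Tmem60, each at 0.02. Tnp1, Prm1 and Tekt4 also belong to the elongating spermatid markers described next. These likenesses use the same 6 arrays and so carry the strain difference within them.

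Several of the listed genes are known from particular germ cell stages, so marker genes of those stages were read from the same arrays. The marker lists were chosen with earlier results of these data known, so their counts are a description. Of all genes 2.23% were called lower. Of 19 tested elongating spermatid markers 5 were called lower and 0 higher, with a median difference of -2.45 (-1.18 with normexp). Their summed level was 5.22 to 11.0 times the 75th percentile in B6.MRLc1, against 21.6 to 56.3 times in B6, and 3 of them were near background on every B6.MRLc1 array. Of the 5 called, Catsper1 and Cylc2 were well above background on 0 of 3 B6.MRLc1 arrays and Odf4 on 1 of 3. A probe could pass the filter through the B6 arrays alone, and a gene that did so could hardly be called higher. Of 22 round spermatid and acrosome markers 8 were called lower and 0 higher, with a median of -1.34 (-0.46 with normexp) and sums of 15.0 to 17.4 in B6.MRLc1, against 19.3 to 23.9 in B6. Among the 8 called, Spaca3 and Spaca7 were well above background on 1 of 3 B6.MRLc1 arrays. Tex101, the brightest of this list at 3.22 in B6.MRLc1 and 3.23 in B6, weighed most in these sums. Of 23 spermatocyte markers 2 were called lower, with a median of -0.21 and sums of 27.3 to 32.1 in B6.MRLc1, against 36.1 to 43.6 in B6. These markers were uneven, and 20 of 23 had a difference below 0. The 2 called were Ldhc at -3.18 and Rec8 at -0.53, while Ybx2 at -1.21 was not called. Among uncalled markers of this list, Spo11 was at -0.74 and Syce1 at -0.37, whereas Sycp1, Sycp3 and Dmc1 were at -0.03, -0.02 and 0.06. Of 16 spermatogonia markers 1 was called lower, with a median of 0.03. In whole testis, fewer spermatids and less of a transcript per spermatid cannot be told apart, and the part of cell composition in the differences of Rnf151, Rnf133, Rnf148, Znrf4 and Klhl10 was not tested.

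The centred median of the elongating spermatid list was -1.35, -1.68 and -0.37 on B6.MRLc1 arrays 1, 2 and 3, against 1.92, 1.04 and 0.69 on B6 arrays 1, 2 and 3. This is the array order seen for Rnf133, with array 2 lowest in B6.MRLc1 and array 1 highest in B6. The round spermatid list ran from -0.68 to -0.42 in B6.MRLc1, against 0.37 to 0.91 in B6. Klhl10 deviated by -0.51 to -0.35 in B6.MRLc1, against 0.31 to 0.59 in B6.

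**Figure D3:**
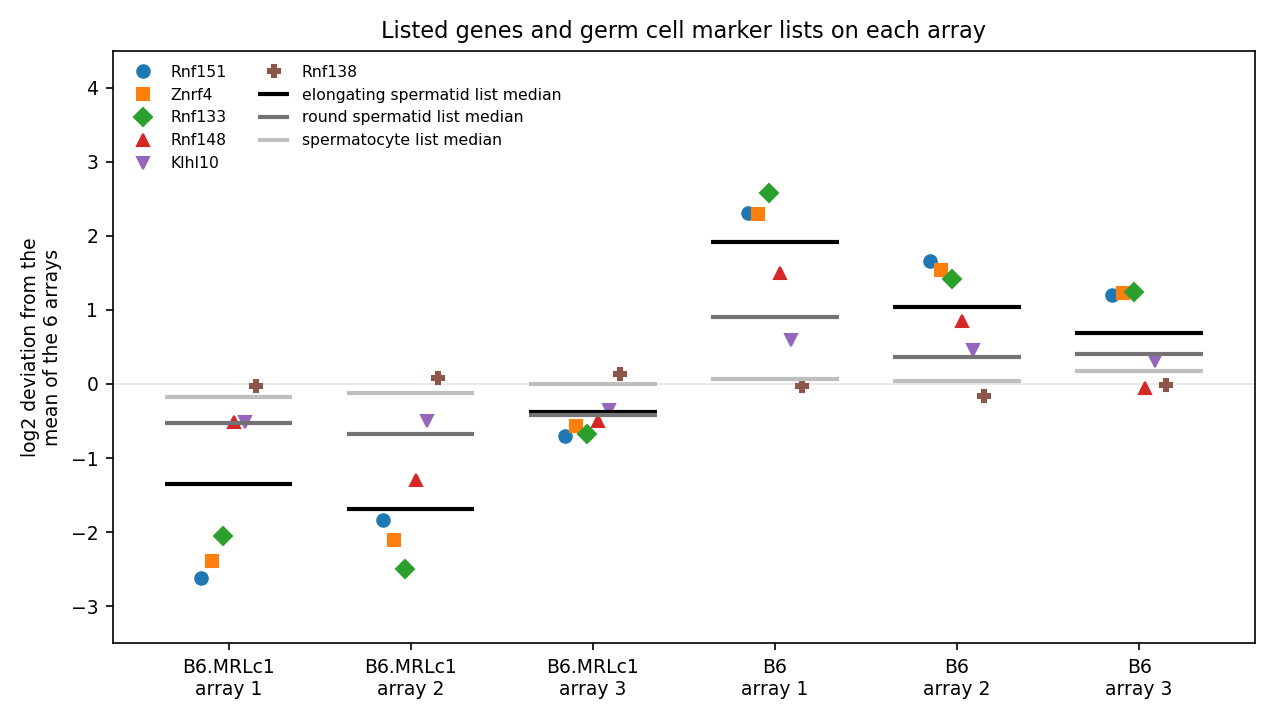
Log2 deviation of each listed gene from its mean over the 6 arrays (vertical axis, points) on each B6.MRLc1 and B6 array (horizontal axis), with the median deviation of the elongating spermatid, round spermatid and spermatocyte marker lists as bars. Rnf151, Znrf4 and Rnf133 lie outside the elongating spermatid bar on every array, Klhl10 runs from -0.51 to 0.59, and Rnf138 runs from -0.16 to 0.13.

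The labelled tissue was checked with markers of its somatic cells; of all genes, 2.61% were called and 20.1% had an unadjusted p under 0.05. Sertoli cell markers (20 tested, 0 called by limma, 3 with an unadjusted p under 0.05, median 0.10) and Leydig cell markers (8 tested, 0 called by limma, 3 with an unadjusted p under 0.05, median 0.17) were present, among them Clu at 8.61 in B6.MRLc1 and 8.51 in B6. Fat cell markers had a median difference of 1.05, with 0 of 7 called by limma, 6 with an unadjusted p under 0.05 and summed levels of 8.23 to 15.9 in B6.MRLc1, against 5.01 to 7.17 in B6. Fewer spots were well above background in B6.MRLc1 (58.0%, 62.2% and 64.7%) than in B6 (68.6%, 69.0% and 68.7%), and its lowest share was on array 1, where Rnf151, Znrf4, Klhl10 and Rnf138 had their lowest B6.MRLc1 levels. The additive error that the scanner software gives for each array was 5.68, 4.45 and 3.38 in B6.MRLc1, against 3.14, 2.81 and 2.66 in B6. The B6.MRLc1 arrays lay in 1 row of the slide and the B6 arrays in the other, so strain and slide row cannot be told apart, and the part of fat, detection and noise in the results was not tested.

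Over 281 tested genes of the rest of the ubiquitin machinery, 4 (1.42%) were called, 1 higher and 3 lower, against 2.61% of all genes. Their median difference was 0.03, and 48 had an unadjusted p under 0.05, as had 20.1% of all genes. Among ubiquitin-activating and conjugating enzymes, 2 of 38 were called lower. Ube2c, the conjugating enzyme of the anaphase-promoting complex, had levels of -0.38, -0.36 and -0.36 in B6.MRLc1, against 0.39, 0.24 and 0.13 in B6, a difference of -0.62 (SE 0.08, limma adjusted p = 0.0275). Ube2t, the conjugating enzyme of the Fanconi anaemia pathway, lies on chromosome 1 and had levels of -3.47, -3.38 and -3.36 in B6.MRLc1, against -2.84, -2.98 and -2.88 in B6, a difference of -0.50 (SE 0.06, limma adjusted p = 0.0275) that shrank to -0.16 with normexp. Neither pair of groups overlapped, but both lost their calls when single arrays were left out. The limma adjusted p of Ube2t was then 0.0585 to 0.0889 whichever array was missing, and that of Ube2c was 0.0689 to 0.0940 for every array but B6 array 3. Ube2j1, the conjugating enzyme reported to work with RNF133, was at -0.18 (limma adjusted p = 0.337). Uncalled Ube2ql1, well above background on 1 of 3 B6.MRLc1 arrays, was at -1.04, or -0.16 with normexp, and uncalled Ube2n, which builds ubiquitin chains used in DNA repair, at 0.31.

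Among cullins, their RING partners and neddylation genes, 0 of 32 were called by limma, and 2 had an unadjusted p under 0.05. Cul3, the cullin that KLHL10 binds, was at -0.01 (limma adjusted p = 0.954), and the nearest to a call were Dcun1d4 (0.36) and Nae1 (0.29). Of 32 other Klhl genes 1 was called higher: Klhl30, a kelch gene on chromosome 1, had levels of -1.32, -1.42 and -1.40 in B6.MRLc1, against -2.57, -2.35 and -3.13 in B6, a difference of 1.30 (SE 0.20, limma adjusted p = 0.0408). The B6 arrays varied more than the B6.MRLc1 arrays, and among the fits that leave out 1 array the call held only when B6 array 3 was left out (limma adjusted p of 0.0605 to 0.119 in the others). Klhl7 (0.27) and Klhl5 (0.20) were not called. Klhl10 stood on the opposite side of 0 from the one other Klhl gene that was called.

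Of 9 other membrane RING genes with a protease-associated domain, the relatives of Rnf133, Rnf148 and Znrf4, 0 were called by limma and 0 had an unadjusted p under 0.05. Their median was 0.11, with Rnf215 at 0.11 and Rnf130 at 0.12. The 3 relatives of Rnf138 (Rnf114, Rnf125 and Rnf166) gave 0 calls and 0 unadjusted p under 0.05, with Rnf114 at -0.11 and Rnf125 at -0.10. Of 75 other genes named Rnf or Znrf 0 were called by limma and 14 had an unadjusted p under 0.05. Rnf32, a gene known from the testis, came near with -2.19, -2.19 and -2.37 in B6.MRLc1, against -1.65, -1.70 and -1.29 in B6 (difference -0.70, limma adjusted p = 0.0529, but 0.0431 with normexp), and Rnf227 was at -0.32.

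Among 51 other ligases and deubiquitinases known from male germ cells, 1 was called lower and 15 had an unadjusted p under 0.05. It was Marchf10, which encodes a membrane-type RING ligase known from elongating spermatids and the sperm tail. Its levels were -3.87, -3.83 and -3.997 in B6.MRLc1, against -1.93, -2.54 and -2.16 in B6. The groups did not overlap, and the difference was -1.69 (SE 0.16, limma adjusted p = 0.0190), or -0.88 with normexp; it was no longer called when array 1 of either strain or array 2 of B6.MRLc1 was left out (limma adjusted p of 0.0549 to 0.0623). With the mean of its probes the difference was -1.25 and was not called (limma adjusted p = 0.0750). Trim69, a RING gene known from the testis, had -6.60, -5.39 and -4.73 in B6.MRLc1, against -1.76, -3.15 and -2.20 in B6. It was well above background on 1 of 3 B6.MRLc1 arrays, and its difference of -3.21 was not called (limma adjusted p = 0.0525). With normexp the difference was -1.09 and was called (limma adjusted p = 0.0385); it was called in 4 of 15 alternatives, with adjusted p from 0.0205 to 0.151. Usp8, a deubiquitinase of the acrosome, was at -0.39 and was not called. Of 42 proteasome genes 0 were called by limma and 1 had an unadjusted p under 0.05; the spermatogenesis-specific subunit Psma8 was at -0.48, or 0.12 with normexp, and Psmd9 at -0.14.

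Genes of proteins reported to bind the listed proteins were then set beside them. Of 12 such genes 0 were called by limma, 2 had an unadjusted p under 0.05, and their differences lay between -0.21 and 0.28. For RNF151 the partner dysbindin (Dtnbp1) was at -0.02, and for ZNRF4 calnexin (Canx) was at 0.11 and the immune kinase gene Ripk2 at -0.21. For RNF138, the kinase gene Nlk was at 0.10, the Wnt transcription factor genes Lef1 and Tcf7l2 at -0.11 and 0.28, and the DNA repair genes Xrcc5, Xrcc6, Rbbp8 and Rad51d at 0.05, -0.02, -0.02 and 0.21. All 12 lay closer to 0 than Klhl10 and the other 4 genes with negative differences.

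The nearest tested genes on the chromosome lay closer to 0 than the 5 listed genes with negative differences in the processed signal, but with normexp Garem1 (0.61) lay farther from 0 than Klhl10 and Rnf148. Of 12 neighbours outside the list 0 were called by limma and 3 had an unadjusted p under 0.05 (20.1% of all genes), and their differences lay between -0.25 and 0.71. Beside Rnf151, whose difference was -3.44, Tbl3 was at -0.0013 and Rps2, a ribosomal protein gene, at -0.10. Rnf133 and Rnf148 lie next to each other and overlap Cadps2, a gene of vesicle release, which was at -0.17. The taste receptor gene Tas2r118 on the far side of Rnf148 was at 0.38. Beside Znrf4, at -3.37, the phosphatase gene Ptprs was at -0.25 and Safb2 at 0.11. Beside Klhl10, at -0.91, Nt5c3b, which overlaps it, was at -0.04 and Klhl11 at 0.04. Beside Rnf138, Garem1 was at 0.71 and Rnf125 at -0.10, and beside the unmeasured Rnf138rt1, Ctps2 was at 0.21 and Ap1s2 at 0.05.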

How the data were processed

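RNA of 6 heated mouse testes, 3 of B6.MRLc1 and 3 of B6, was labelled with Cy3 and hybridised to one-colour Agilent arrays, per the labels' protocols. Each deposited scanner table gives spot intensity on a linear scale, which per the file headers is background-subtracted and detrended, and flags for spots above background or outlying (other values, 0 or 1). The submitters' processing notes name Agilent Feature Extraction 9.5.3, and the file headers another version. The authors' deposited series table holds log2 values, used only as an alternative; no source used here says how they were made.

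Control and outlier spots were left out, and log2 was taken of processed signals over the 75th percentile of their array. Probes with values on 4 or more arrays, and with over 0.5 of their spots well above background on 3 or more of the 6, were used, which kept 36626 of 55681. A probe could thus pass through the arrays of either strain alone. The brightest kept probe stood for each of 25275 genes. Strains were compared with limma 3.58.1 in R 4.3.3 (lmFit and eBayes, no covariate), with Benjamini-Hochberg adjustment over all genes and calls at an adjusted p under 0.05. The code was tested on simulated data. Gene names came from the array's accession through a RefSeq table of GRCm38.p6 (27235 probes), its symbol (3581) or the file alone (24865). All arrays lay on 1 slide from 1 scan, no spot was saturated, and the 75th percentiles were 558 to 603.5 in B6.MRLc1 and 579.8 to 666.4 in B6; the number of arrays limits the precision.

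The listed genes and all gene and marker lists were chosen with earlier results of these data known. Named besides the listed genes were, in each ubiquitin list, the called genes and, where fewer than 3 were called, up to 2 uncalled genes with the smallest p, all partners and neighbours, and the 3 genes most like each of 5 listed genes; Rnf122, Rnf207, Rnf17 and Rnf166 were named after their values were seen. Alternatives were normexp (offset 50), the deposited values, no or a stricter filter, a floor, other scalings, mean probes, an intensity trend, array weights, the replicate number as a block, and leaving out each array. Not every same-numbered pair of arrays correlated above 0.1, so the numbers were not taken as pairs.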

Additional observations from a re-analysis of the deposited data

How the results depend on the processing

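The sign of the difference was kept for each of the 6 listed genes under every alternative that held it; with the replicate block 0 of them were called. Over all genes, against 660 calls (85.3% lower), the number called was 64 with no filter on dim probes, 1204 with an intensity trend, 4098 with array weights (56.3% lower), 24 with the replicate block, and 56 to 480 when each array was left out; normexp gave 890 (69.8% lower). In the ubiquitin lists, against 4 calls, the number was 0 with no filter (40 genes had an unadjusted p under 0.05 in limma), 7 with probes well above background on all 6 arrays, 7 with an intensity trend, 39 with array weights, 0 with the replicate block (41 with an unadjusted p under 0.05) and 0 to 3 when each array was left out. Same-numbered arrays correlated at -0.04, 0.17 and 0.09, so the replicate numbers were not taken as pairs, although B6.MRLc1 arrays 2 and 3 each correlated best with the same-numbered B6 array; B6.MRLc1 array 1 did so with B6 array 3 (0.07). Differences of 52 other named genes kept their sign in all but 20 cases. Signs turned with normexp for Ripk2 (0.0014), Xrcc6 (0.012), Tbl3 (0.0080) and Psma8 (0.12), with array weights for Lef1 (0.045), with median scaling for Tbl3 (0.0038) and with the mean of probes for Rad51d (-0.045) and Rnf130 (-0.14). When each array was left out, differences on both sides of 0 were found for Cul3 (-0.027 to 0.0065), Xrcc6 (-0.050 to 0.015), Rbbp8 (-0.054 to 0.018), Tbl3 (-0.022 to 0.0097), Ap1s2 (-0.035 to 0.11) and Klhl11 (-0.058 to 0.16). The fit with no filter tested more genes, and each fit without an array had fewer samples. Why the number of calls changed was not tested for any setting. Levels of Rnf133, and in part of Znrf4, Rnf148 and Rnf151, in B6.MRLc1 were limited by signal over background.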
